A study of Homo sapiens with 10 samples.

Results

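To describe the cofactor side of LXR signaling in PC3 cells, the 9 nuclear receptor coregulator genes NCOR1, NCOA1, NCOA2, NCOA3, NCOA6, NRIP1, MED1, EP300 and CREBBP were taken by name from a table of 62656 genes. PC3 is a human prostate cancer cell line derived from a bone metastasis. After overnight starvation, cells received for 24 h either 1 µM GW3965, a synthetic agonist of both LXRs, or the vehicle DMSO. Each condition has 5 RNA-seq libraries, named here DMSO 1 to 5 and GW3965 1 to 5. All of them come from 1 cell line, 1 dose and 1 time point, with no genetic change. The sources used here do not say whether the replicates are separate cultures, so p-values measure the spread between these libraries, which may be technical.

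Liver X receptors (LXRs) are oxysterol-activated transcription factors that bind DNA as heterodimers with retinoid X receptors (RXRs) and switch on genes of cholesterol efflux and fatty acid synthesis. Without agonist, a bound heterodimer can hold corepressors such as NCOR1, which bring histone deacetylases to the gene. Agonist changes the shape of the ligand-binding domain, so that corepressors leave and coactivators with LXXLL motifs, among them the p160 proteins encoded by NCOA1, NCOA2 and NCOA3, dock and recruit the acetyltransferases EP300 and CREBBP and the Mediator complex through MED1. RNA levels, measured here, inform on the transcripts of these cofactors and not on their protein amounts or their binding to the receptor.

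All 9 genes are protein coding (GENCODE 29, build GRCh38). NCOR1 (ENSG00000141027) spans 17:16029157-16218185 on the reverse strand and MED1 (ENSG00000125686) 17:39404285-39451286 on the same strand. NCOA1 (ENSG00000084676) is at 2:24491914-24770702 on the forward strand, and NCOA2 (ENSG00000140396) is read from the reverse strand of its chromosome. Chromosome 20 carries NCOA3 (ENSG00000124151) at 47501902-47656877, forward, and NCOA6 (ENSG00000198646) at 34689097-34825649, reverse. NRIP1 (ENSG00000180530) is at 21:14961235-15065936, reverse, and its coding sequence sits in 1 exon in every coding transcript. EP300 (ENSG00000100393) is at 22:41091786-41180079, forward, and CREBBP (ENSG00000005339) at 16:3725054-3880726, reverse. Their exon lengths, given per gene and not per single transcript, are long. The lengths that the values imply were 8417 to 15620 bases, against a median of 2949.5 over the genes tested.

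LXR/RXR heterodimers bind a direct repeat of AGGTCA spaced by 4 bases (DR4, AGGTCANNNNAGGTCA), so the start-site windows of the coregulators were read beside that of ABCA1, the cholesterol efflux pump and a known LXR target. The windows come from RefSeq (GRCh38.p14) and run from 250 bases before to 50 bases after an annotated start. They are printed 5′ to 3′ along the gene's strand, with a DR4 match of at most 2 mismatches in the half-sites in capitals. ABCA1 is shown as the target with a match, NCOR1 and NRIP1 as the coregulators with the largest positive and the largest negative difference.
ABCA1, chr9:104928106-104928405, reverse strand: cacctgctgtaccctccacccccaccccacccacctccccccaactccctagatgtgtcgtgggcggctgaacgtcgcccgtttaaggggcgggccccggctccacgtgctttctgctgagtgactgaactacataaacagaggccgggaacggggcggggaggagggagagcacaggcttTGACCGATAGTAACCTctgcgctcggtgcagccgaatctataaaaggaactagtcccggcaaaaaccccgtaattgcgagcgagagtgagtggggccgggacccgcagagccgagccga
NCOR1, chr17:16215485-16215784, reverse strand: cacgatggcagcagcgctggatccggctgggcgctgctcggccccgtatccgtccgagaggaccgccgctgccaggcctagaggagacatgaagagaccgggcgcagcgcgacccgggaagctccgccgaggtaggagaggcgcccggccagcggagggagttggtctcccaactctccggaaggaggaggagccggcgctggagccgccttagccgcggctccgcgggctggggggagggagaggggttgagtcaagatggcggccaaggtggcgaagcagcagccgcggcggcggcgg
NRIP1, chr21:15065887-15066186, reverse strand: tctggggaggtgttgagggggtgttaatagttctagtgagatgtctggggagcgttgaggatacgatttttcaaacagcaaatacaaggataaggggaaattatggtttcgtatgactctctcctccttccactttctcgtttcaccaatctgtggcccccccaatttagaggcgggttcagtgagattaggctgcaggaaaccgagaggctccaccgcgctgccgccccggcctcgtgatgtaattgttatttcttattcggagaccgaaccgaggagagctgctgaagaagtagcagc
The capitals of ABCA1 are, on the other strand, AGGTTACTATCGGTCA, and begin 69 bases before the start. Of the 13 windows listed for 7 of the 9 coregulators, 0 held a match on either strand, and their best alignments had 4 or 5 mismatches. Among all 35116 RefSeq windows of this length, 822 (2.34%) held one. A match is a description of letters, and its lack says only that they are not in these windows. The printed windows are 1 of 2 listed for NCOR1 and 1 of 3 for NRIP1, and G and C make up 26.3% and 72.7% of the NCOR1 windows and 50.7% to 80.0% of the NRIP1 windows.

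Values are RPKM, reads scaled for gene length and library size, so levels can be compared between genes as far as the lengths hold. Whole reads could be recovered from them, giving 30429518 to 41636535 reads per library and 1137 to 6185 reads for each coregulator in each library. Counting error was therefore at most 2.97% of a value. The epithelial keratins KRT8, KRT18 and KRT19 were high, CDH1 was at 0.152 to 0.518 RPKM, and the prostate luminal gene KLK3 was listed at 0. Of the markers of other cell types, 0 of 5 for leukocytes, 1 of 5 for fibroblasts (COL1A1, 0.696 to 1.08 RPKM) and 2 of 4 for endothelial cells (KDR, 0.667 to 1.73 RPKM, and PECAM1, 0.409 to 0.760 RPKM) reached a mean of 0.5 RPKM, and 0 of them were called. DMSO 4 stood apart from its group more often than any other library, for 698 of 16068 genes (4.34%), followed by DMSO 1 (2.02%) and GW3965 5 (1.52%).

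All 9 coregulators were expressed in every library, and none changed past the threshold with GW3965. In RNA from whole cultures, fewer cells expressing a gene and less RNA per cell cannot be told apart. The test was limma on log2(RPKM + 0.1) over the 20402 genes that averaged 0.5 RPKM or more, and a gene was called where its Benjamini-Hochberg adjusted p was under 0.05. It called 0 of 9 coregulators, 0 also had an unadjusted p under 0.05, and in 0 of 9 did the values of the conditions fail to overlap. Over all genes tested, 32 (0.157%) were called, 30 higher (0.147%) and 2 lower (0.0098%), 6.99% had an unadjusted p under 0.05, and 1.84% had values that did not overlap. Against so low a background, 0 of 9 is not a result particular to the coregulators. The log2 fold change was positive for 7 of 9 with a median of 0.03, beside 51.1% positive and a median of 0.0034 over all genes tested. The 95% intervals of all 9 covered 0. For the 8 genes other than NRIP1 they ran from -0.18 to 0.26, so that a rise above 1.20-fold or a fall beyond 1.13-fold lay outside the interval of each gene taken alone.

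Ordered by the mean over the 10 libraries, NCOA3 was highest at 13.5 RPKM, followed by NRIP1 (11.1), MED1 (10.7), EP300 (9.76), NCOA6 (9.70), NCOR1 (9.18), NCOA2 (7.55), CREBBP (7.47) and NCOA1 (4.51). The coregulators thus sat between the 59.7 and 83.9 percentile of the genes tested. Several neighbours in this order were not separated. EP300 exceeded NCOA6 in 6 of 10 libraries, by 0.0551 ± 0.477 RPKM (SD over libraries), and NCOA2 exceeded CREBBP in 6 of 10, by 0.0747 ± 0.790 RPKM. NRIP1 and MED1 also changed places between libraries (NRIP1 higher in 6 of 10, 0.374 ± 2.47 RPKM). Clear steps were those from NCOR1 down to NCOA2 (10 of 10 libraries, 1.64 ± 0.689 RPKM) and from CREBBP down to NCOA1 (10 of 10, 2.96 ± 0.537 RPKM). The remaining steps lay in between. NCOA3 exceeded NRIP1 in 8 of 10 libraries (2.41 ± 2.08 RPKM), MED1 exceeded EP300 in 9 of 10 (0.962 ± 0.890 RPKM), and NCOA6 exceeded NCOR1 in 9 of 10 (0.518 ± 0.540 RPKM). The order rests on the lengths the authors used, which differ from GENCODE 29 most for MED1 (8608 against 7330 bases) and EP300 (11692 against 12500 bases). With the GENCODE 29 lengths, an alternative chosen after seeing the data, MED1 was at 12.6 RPKM, above NRIP1, and EP300 at 9.12 RPKM, below NCOA6 (9.70) and NCOR1 (9.31), while NCOA3 stayed highest and NCOA2, CREBBP and NCOA1 lowest.

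NCOR1 encodes the scaffold of the corepressor complex that carries HDAC3. It stood at 9.03, 9.34, 8.01, 8.88 and 8.59 RPKM in DMSO 1 to 5 and at 9.41, 9.39, 9.05, 9.68 and 10.4 RPKM in GW3965 1 to 5. In 4 of 5 GW3965 libraries it was above every DMSO library, while GW3965 3 lay inside the DMSO range. The means were 8.77 ± 0.503 (SD, n = 5) and 9.59 ± 0.522 RPKM (n = 5), a log2 fold change of 0.13 (SE 0.06, 95% interval -0.0031 to 0.26). The unadjusted p of limma was 0.0547 and the adjusted p 0.725, so the difference did not pass the test. In 20 other analyses the log2 fold change ran from 0.10 to 0.15 and the limma adjusted p from 0.369 to 0.969. In 4 of them (no filter on low values, the leading principal component as covariate, without DMSO 2 and without GW3965 3) the unadjusted p of limma was 0.0387 to 0.0444 and the 95% interval lay above 0.

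NRIP1 encodes RIP140, a ligand-dependent corepressor that docks on agonist-bound receptors through LXXLL motifs. It measured 12.4, 13.2, 12.5, 7.10 and 12.9 RPKM in DMSO 1 to 5 and 11.6, 11.1, 10.1, 9.54 and 10.5 RPKM in GW3965 1 to 5. DMSO 4 was the lowest of all 10 libraries, and the other 4 DMSO libraries were all above all 5 GW3965 libraries. Over all libraries the means were 11.6 ± 2.55 (n = 5) and 10.6 ± 0.805 RPKM (n = 5), with a log2 fold change of -0.11 (SE 0.15, 95% interval -0.45 to 0.23, limma adjusted p = 0.954). Without DMSO 4 the DMSO mean was 12.8 ± 0.346 RPKM (n = 4) and the log2 fold change was -0.27 (SE 0.06, 95% interval -0.41 to -0.13). The unadjusted p was then 0.00147 and the adjusted p 0.197, still short of the threshold. NRIP1 was the only coregulator whose conditions did not overlap in that analysis (1 of 9), where 3.36% of all genes tested did not overlap, 1.02% with GW3965 lower, and 0.186% were called. DMSO 4 was the only DMSO library below any GW3965 value of NRIP1, so leaving it out made this lack of overlap certain. It also narrowed the DMSO spread, so neither the lack of overlap nor the unadjusted p tests a fall. Whether the DMSO values with or without DMSO 4 describe DMSO-treated cells was not tested. The direction of NRIP1 was negative with and without DMSO 4, and its size moved more than for any other coregulator.

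DMSO 4 did not stand apart from its group for any other coregulator. It was the highest of 10 libraries for NCOA6, EP300 and CREBBP and the second highest for MED1, while only DMSO 3 was lower for NCOA2. The 2 genes whose deviations from the condition means were most like those of NRIP1 over the 10 libraries were EXOC5 and CHML (Pearson r 0.995 each, among 16067 genes searched). They were picked with DMSO 4 included, where NRIP1 deviated most, so their low values in DMSO 4 follow from the choice. EXOC5 was at 7.95 RPKM in DMSO 4 against 12.7 to 13.5 in the other DMSO libraries, and CHML at 13.8 against 24.3 to 26.0. Without DMSO 4 the coefficients of these same 2 genes, not picked anew, were 0.945 and 0.937 over 9 libraries. With GW3965, EXOC5 was at 11.3 to 13.2 RPKM, which reached into the range of the other DMSO libraries, and CHML at 20.3 to 24.2 RPKM, which like NRIP1 did not.

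**Figure D1:**
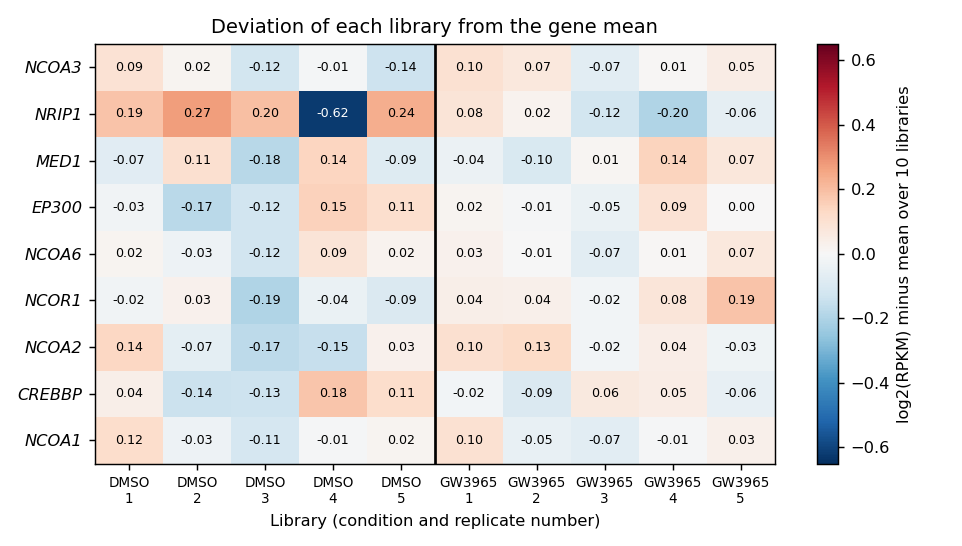
Deviation of each library from the gene's mean on the log2 RPKM scale, genes in rows and the 10 libraries in columns, red above and blue below the mean, with the value in each cell. The cell of NRIP1 in DMSO 4 (-0.62) is the farthest from 0, while in the same library CREBBP, EP300 and MED1 are above their means.

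The p160 coactivators NCOA1, NCOA2 and NCOA3 (SRC-1, SRC-2 and SRC-3) share a receptor-binding region of LXXLL motifs and bring in acetyltransferases. NCOA3, often amplified or overexpressed in cancers, was at 14.4, 13.6, 12.4, 13.4 and 12.3 RPKM in DMSO 1 to 5 and 14.4, 14.1, 12.9, 13.6 and 14.0 RPKM in GW3965 1 to 5. Its conditions overlapped almost fully, with means of 13.2 ± 0.887 and 13.8 ± 0.607 RPKM (n = 5 each) and a log2 fold change of 0.06 (SE 0.06, 95% interval -0.07 to 0.19, limma adjusted p = 0.913). NCOA2 was at 8.27, 7.19, 6.69, 6.79 and 7.66 RPKM with DMSO and 8.09, 8.22, 7.43, 7.75 and 7.37 RPKM with GW3965. Here the highest single value was a DMSO library, and the log2 fold change was 0.09 (SE 0.07, 95% interval -0.06 to 0.24, limma adjusted p = 0.873). NCOA1, the least abundant of the 9, was at 4.88, 4.40, 4.18, 4.48 and 4.56 RPKM with DMSO and 4.83, 4.36, 4.30, 4.48 and 4.60 RPKM with GW3965. These ranges nearly coincide, and the log2 fold change was 0.0050 (SE 0.06, 95% interval -0.13 to 0.14, limma adjusted p = 0.994).

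Within the p160 family, the balance between members was compared as well. As a share of the summed RPKM, NCOA3 made up 52.8% ± 1.71 with DMSO and 52.9% ± 0.580 with GW3965 (SD, n = 5 each). NCOA2 made up 29.2% ± 1.46 and 29.8% ± 0.880, and NCOA1 18.0% ± 0.448 and 17.3% ± 0.575. The order NCOA3, NCOA2, NCOA1 held in every library, and only the NCOA1 shares differed between the conditions by more than 1 SD. Shares of 1 sum are tied to each other and were not tested.

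NCOA6, a coactivator that anchors the ASCOM complex of histone H3 lysine methyltransferases, was at 9.80, 9.49, 8.89, 10.3 and 9.83 RPKM with DMSO and 9.88, 9.66, 9.23, 9.75 and 10.2 RPKM with GW3965. Both ends of its GW3965 range lay inside the DMSO range. The log2 fold change was 0.01 (SE 0.05, 95% interval -0.11 to 0.13, limma adjusted p = 0.987), the narrowest interval of the 9. MED1, the Mediator subunit that contacts nuclear receptors, was at 10.2, 11.5, 9.43, 11.8 and 10.1 RPKM with DMSO and 10.4, 9.96, 10.8, 11.8 and 11.3 RPKM with GW3965. The top value of each condition was nearly the same, and the log2 fold change was 0.04 (SE 0.07, 95% interval -0.13 to 0.20, limma adjusted p = 0.965).

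The acetyltransferases EP300 and CREBBP are close paralogs that modify histones at enhancers and promoters. EP300 was at 9.56, 8.64, 8.94, 10.8 and 10.5 RPKM with DMSO and 9.87, 9.69, 9.43, 10.4 and 9.76 RPKM with GW3965. CREBBP was at 7.65, 6.76, 6.79, 8.44 and 8.05 RPKM with DMSO and 7.36, 6.99, 7.79, 7.70 and 7.17 RPKM with GW3965. Both genes were lowest in DMSO 2 and 3 and highest in DMSO 4 and 5, and all GW3965 values lay within the DMSO range. The log2 fold changes were 0.03 for EP300 (SE 0.07, 95% interval -0.13 to 0.18, limma adjusted p = 0.977) and -0.02 for CREBBP (SE 0.07, 95% interval -0.18 to 0.14, limma adjusted p = 0.982). EP300 was above CREBBP in every library, by a ratio of 1.21 to 1.39, or 1.13 to 1.30 with the GENCODE 29 lengths. The mean ratio was 1.29 ± 0.0252 with DMSO and 1.33 ± 0.0686 with GW3965 (SD, n = 5 each).

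**Figure D2:**
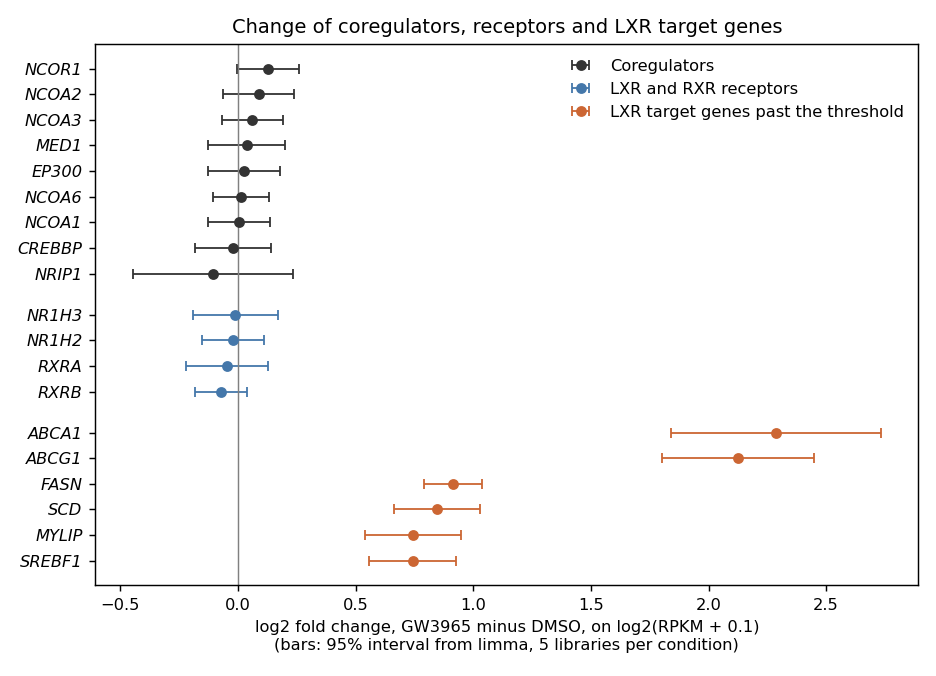
log2 fold change of GW3965 minus DMSO on log2(RPKM + 0.1) with its 95% interval from limma (5 libraries per condition) for the 9 coregulators (black), the 4 LXR and RXR genes tested (blue) and the 6 LXR target genes past the threshold (orange). Every coregulator and receptor interval covers 0, while the target genes run from 0.74 to 2.29.

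Replicates of the coregulators lay close together. The coefficient of variation was 3.53% to 9.96% in either condition for the 8 genes other than NRIP1, and 21.9% with DMSO and 7.63% with GW3965 for NRIP1. It was lower with GW3965 for 9 of 9 coregulators, beside 64.1% of the 4931 genes of like level. The median over those genes was 9.74% with DMSO and 7.99% with GW3965. For NRIP1, whose DMSO variation exceeded that of 93.9% of those genes, the value without DMSO 4 was 2.71%, under that with GW3965.

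The receptors that these cofactors serve were also at similar levels in both conditions. NR1H2, encoding LXRβ, was at 15.8 ± 1.05 RPKM with DMSO and 15.6 ± 0.801 RPKM with GW3965 (SD, n = 5 each). NR1H3, encoding LXRα, was at 1.80 ± 0.176 and 1.78 ± 0.0880 RPKM. The mean of NR1H2 was thus above that of every coregulator, and the mean of NR1H3 under that of every one. Of the LXR and RXR genes 4 of 5 were tested, 0 were called and 0 had a positive log2 fold change, from -0.07 for RXRB (limma adjusted p = 0.853) to -0.01 for NR1H3 (limma adjusted p = 0.990), while RXRG was listed at 0.

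Target genes in the same libraries did respond. Of 17 known LXR targets, a list chosen with earlier results of these data known, 10 were tested, 6 were called higher and 0 lower, and the median log2 fold change was 0.74. ABCA1 went from 3.43 ± 1.34 to 16.5 ± 2.37 RPKM (log2 fold change 2.29, SE 0.20, limma adjusted p = 0.00063). The others called were the cholesterol transporter ABCG1 (2.13), the lipogenic enzymes FASN (0.91) and SCD (0.85), MYLIP, a ubiquitin ligase of the LDL receptor (0.74), and SREBF1, a master regulator of lipogenesis (0.74). The lowest of the list was NR1H3 (-0.01). Every one of the 6 changes called was larger than the upper end of the interval of each coregulator. These 6 were picked for passing the threshold, which favours large changes. Of the targets tested and not called, not all were larger, and NR1H3 was 1 of several that were not.

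Partners of the coregulators were counted from 4 lists of 81 genes, of which 78 were tested. Of these 0 were called, 1 had an unadjusted p of limma under 0.05, 37 had a positive log2 fold change, and the median was -0.0025. Over all genes tested, 0.157% were called, 6.99% had an unadjusted p under 0.05 and 51.1% had a positive log2 fold change. With so few calls in the background, 0 of 78 is not a result particular to the partners. Among 21 of 22 tested partners of NCOR and histone deacetylase complexes, 0 were called and 10 were positive (median -0.01), from SAP30 (-0.13, limma adjusted p = 0.935) to the corepressor RCOR1 (0.10, limma adjusted p = 0.880). GPS2, a core subunit of the NCOR1 complex, averaged 0.438 RPKM and was under the filter. Among 17 of 19 tested coactivator partners 0 were called and 5 were positive (median -0.01), from NCOA5 (-0.10, limma adjusted p = 0.924) to NCOA7 (0.27, SE 0.16, limma adjusted p = 0.818). PPARGC1A, the metabolic coactivator PGC-1α, averaged 0.0029 RPKM, and KAT2A was listed at 0. Whether the KAT2A value reflects its transcript level or how reads were assigned was not tested.

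The ASCOM partners of NCOA6 gave 9 of 9 tested, 0 called and 3 positive (median -0.01). Their lowest was WDR5 (-0.05, limma adjusted p = 0.968). Their highest was PAGR1, at 1.38 ± 0.196 RPKM with DMSO and 1.66 ± 0.129 RPKM with GW3965 (log2 fold change 0.25, SE 0.11, unadjusted p = 0.0388, limma adjusted p = 0.677). The Mediator partners of MED1 gave 31 of 31 tested, 0 called and 19 positive (median 0.02), from MED27 (-0.11, limma adjusted p = 0.918) to MED4 (0.13, limma adjusted p = 0.828). All of these values lay within the 5th to 95th percentile of the genes tested, -0.36 to 0.33.

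How the reads were assigned bears on some of these genes, since the 50-base reads can match other genes. Exons of 5 coregulators overlap an exon of another gene. NRIP1 overlaps the antisense gene AF127577.1 over 562 bases (6.61% of its exon bases), listed at 0, and AF127577.4 on its own strand over 87 bases. NCOA3 overlaps SULF2 on the opposite strand over 96 bases, and SULF2 was at 82.9 to 108 RPKM. NCOR1 overlaps PIGL (321 bases) and AC002553.1 (188 bases), both opposite. NCOA6 overlaps PIGU on the same strand over 96 bases, and PIGU was at 13.1 to 16.5 RPKM. EP300 overlaps AL035658.1 (107 bases, opposite) and MIR1281 (54 bases, same strand). Whether the counting used strand is not given in the sources used here, so reads from the opposite-strand stretches cannot be told apart. Strand would not separate reads from the same-strand stretches in any case.

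Of the 50-base windows of NCOR1 transcripts, 176 of 16064 (1.10%) also occur in transcripts of other genes in the same direction. These include the pseudogenes NCOR1P2 (40 windows, 1.00 to 3.37 RPKM) and NCOR1P1 (34 windows, listed at 0). For NCOA1, NCOA2 and MED1 no window was shared, and for the other 5 the share was 0.104% to 0.624%. Counted against transcripts of all other genes, the paralog included, the acetyltransferases EP300 and CREBBP had 13 and 90 shared windows. The part shared between these paralogs is not given apart.

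For the other 8 coregulators, the 2 most similar genes were found in the same way, from deviations from the condition means over 10 libraries, and are given as a description. The highest coefficients were 0.982 for CREBBP with ENSG00000286388, 0.980 for NCOA6 with ANTXR1, 0.977 for NCOA2 with KIZ, 0.974 for NCOA3 with SPOCK1, 0.971 for NCOA1 with AC027288.1, 0.961 for EP300 with PTCH1, 0.949 for NCOR1 with FAM138A and 0.948 for MED1 with RNU1-67P. The next were RASL11A for CREBBP (0.952), CSNK1G1 for NCOA6 (0.953), ATF7IP for NCOA2 (0.973), CLCN3 for NCOA3 (0.967), AC133644.1 for NCOA1 (0.955), ZFP41 for EP300 (0.935), RDH11 for NCOR1 (0.938) and GTF3C4 for MED1 (0.948). No coregulator appeared among the most similar genes of another. With 10 libraries and 16067 genes to choose from, high coefficients come up readily, and the genes share the library, its depth and its composition.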

How the data were processed

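Total RNA of PC3 cells was sequenced as single 50-base reads (Illumina Stranded Total RNA with Ribo-Zero Plus, although the labels give polyA RNA). The submitters' processing notes name hg38, HISAT2 2.1.0, HTSeq 0.11.2 and DESeq2 1.22.2. The study's methods name mm10, but all gene identifiers are human. The annotation release is not given in the sources used here. The authors deposited RPKM per gene and library. Whole reads were recovered from the RPKM steps (tolerance 0.0001, 100% of genes with reads). The library factors matched median-of-ratios size factors, so the values are scaled by these and not by totals.

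Groups followed the labels. limma 3.58.1 (R 4.3.3) with a mean-variance trend was run on log2(RPKM + 0.1) for 20402 genes that averaged 0.5 RPKM or more, after tests on simulated data. Intervals are 95% and not adjusted for the number of genes. Fold changes on this scale understate those of low genes. The count-based alternative was voom. Named genes are all coregulators and, of each other list, its called, highest and lowest tested genes, with the 2 genes most like each coregulator and those overlapping or copying it. Members and lists were chosen with earlier results of these data known. Some further genes are not reported here.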

Additional observations from a re-analysis of the deposited data

Results flagged for a closer look

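NRIP1 in DMSO 4 lay far from the rest of its group, at 7.10 RPKM against 12.4 to 13.2 RPKM in the other 4 DMSO libraries. The gap to the nearest of them was 0.906 of the group's range, above Dixon's limit of 0.71 for 5 samples. It was the only such value among 54 groups checked, where chance alone would give about 2.7. DMSO 4 was the lowest apart from its group for 494 of 16068 genes (3.07%), and the part of that in the NRIP1 value was not tested.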

How the results depend on the processing

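In each of 20 other analyses 0 of 9 coregulators and 0 partner or receptor genes were called, and 4 to 6 LXR targets were. The lowest adjusted p of any coregulator was 0.197 (NRIP1 without DMSO 4). The number of genes called over the whole table was 32, and 17 to 38 with 1 library left out. It was 21 with no filter, 20 with no trend, 56 with library weights, 146 with PC1 (the leading principal component of the recovered reads) as covariate and 63 with voom on the recovered reads; the cause was not tested. With the replicate number as a block it was 16. Same-numbered libraries deviated together with r of -0.14 to 0.16 over 5 pairs, 2 of them over 0.1, and 1 of 5 DMSO libraries correlated best with its own number, so the numbers were not taken to pair samples.

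The log2 fold changes of NCOR1, NCOA2, NCOA3 and NRIP1 kept their sign in all 20 analyses. The other 5, all near 0, changed sign in 15 values, none past the threshold. With 1 library left out, NCOA1 ran from -0.0207 to 0.0340, NCOA6 from -0.0167 to 0.0354, MED1 from -0.0027 to 0.0764, EP300 from -0.0137 to 0.0659 and CREBBP from -0.0587 to 0.0204. NCOA1 was -0.0159 with quantile normalization and -0.0021 with PC1, NCOA6 was -0.0082 with quantile normalization, and CREBBP was 0.0349 with library weights. NRIP1 ran from -0.27 (without DMSO 4) to -0.05 with 1 library left out, and was -0.24 with library weights. Counting error was at most 2.97% of a coregulator's value, beside a spread between libraries of 3.53% or more.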
